A study of Rattus norvegicus with 6 samples.

Results

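The genes described here are those of the proteasome, the protease complex that degrades ubiquitin-tagged proteins, and of ubiquitin conjugation in rat liver after hemorrhagic shock. Members were chosen by gene symbol: proteasome subunit genes of the Psma to Psmg series without Psmb8 and Psmb9, all Ube2 symbols, and genes of ubiquitin itself. Of 7126 genes that could be named on the arrays, 46 were members, and each was measured by 1 row of the table. They comprised 13 subunits of the 20S core (6 Psma and 7 Psmb), 16 regulatory genes (5 Psmc, 8 Psmd and 3 Psme), 13 Ube2 genes and 2 ubiquitin genes. The other 2, Psmc3ip and Psme3ip1, match by symbol but encode no proteasome subunit. Psmc3ip encodes a meiotic recombination protein, and Psme3ip1 a protein that binds the activator Psme3, so both were kept out of the group medians. Another 51 symbols that fit the rule and are not labelled as pseudogenes had no matched row, Psmb5, Psmd14 and every Psmf and Psmg gene among them, and were not analysed here.

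The samples were livers of male Sprague-Dawley rats, of an age labelled 90 and 120 days, all of which had been bled by amputation of the tail and infused with Ringer's solution, a balanced salt solution. The limited group (n = 3 arrays) was held at a mean arterial pressure of 50 to 60 mmHg. The aggressive group (n = 3 arrays) was infused toward a pressure above 80 mmHg, and livers of both groups were taken at 330 min. With each regimen given to 6 rats, 3 liver samples per regimen were measured. The labels do not say that each sample is a single animal, so the p-values measure the spread between these samples. Unbled control rats were not analysed here, and every difference below is limited minus aggressive resuscitation.

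The proteasome degrades proteins that carry chains of ubiquitin, a small protein attached through a cascade of activating (E1), conjugating (E2) and ligating (E3) enzymes. Its barrel-shaped core is built of rings of alpha subunits (Psma), which gate the entrance, and beta subunits (Psmb), some of which carry the proteolytic sites. A regulatory particle caps the core, with a ring of ATPases (Psmc) that unfold substrates and non-ATPase subunits (Psmd) that bind and process ubiquitin chains. Psme genes encode alternative activators of the core. In liver the system removes damaged and short-lived proteins, and interferon exchanges the catalytic beta subunits for the inducible Psmb8, Psmb9 and Psmb10. Transcription of the subunits is known to be raised together by the factor Nfe2l1 through antioxidant response elements.

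Promoters are shown for Ube2l6, Psma5, Psmc1 and Psmd10, which had the 4 largest differences among members whose groups did not overlap, and for Psmb10, an interferon-inducible subunit that was nearly equal in both groups. Each runs 5′ to 3′ from 250 bases before to 50 bases after the annotated transcription start in the RefSeq table of build GRCr8. Capitals mark matches, on either strand, to CCAAT (the CCAAT box) or to GAAA, any 2 bases and GAAA (the core of the interferon-stimulated response element). Matches to TGACNNNGC (the antioxidant response element core) were searched too, and none lies in these 5 windows.
Ube2l6 (chr3:90279455-90279754, plus strand): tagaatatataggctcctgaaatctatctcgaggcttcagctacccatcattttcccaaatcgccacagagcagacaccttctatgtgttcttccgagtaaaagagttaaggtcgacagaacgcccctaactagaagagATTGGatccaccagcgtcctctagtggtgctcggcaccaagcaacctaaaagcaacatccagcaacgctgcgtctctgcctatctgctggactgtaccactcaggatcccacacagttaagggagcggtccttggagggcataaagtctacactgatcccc
Psma5 (chr2:198584255-198584554, plus strand): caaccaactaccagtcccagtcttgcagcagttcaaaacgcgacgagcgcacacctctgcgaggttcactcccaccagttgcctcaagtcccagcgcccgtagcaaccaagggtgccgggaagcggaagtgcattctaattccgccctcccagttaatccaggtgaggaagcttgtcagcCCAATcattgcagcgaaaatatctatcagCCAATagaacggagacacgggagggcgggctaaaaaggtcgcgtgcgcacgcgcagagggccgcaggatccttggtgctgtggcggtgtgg
Psmc1 (chr6:125122247-125122546, plus strand): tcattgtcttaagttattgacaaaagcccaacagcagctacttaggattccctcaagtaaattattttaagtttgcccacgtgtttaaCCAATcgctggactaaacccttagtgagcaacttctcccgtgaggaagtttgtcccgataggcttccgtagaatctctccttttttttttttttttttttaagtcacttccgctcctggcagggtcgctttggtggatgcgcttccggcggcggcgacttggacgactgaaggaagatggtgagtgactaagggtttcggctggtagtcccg
Psmd10 (chrX:109453556-109453855, minus strand): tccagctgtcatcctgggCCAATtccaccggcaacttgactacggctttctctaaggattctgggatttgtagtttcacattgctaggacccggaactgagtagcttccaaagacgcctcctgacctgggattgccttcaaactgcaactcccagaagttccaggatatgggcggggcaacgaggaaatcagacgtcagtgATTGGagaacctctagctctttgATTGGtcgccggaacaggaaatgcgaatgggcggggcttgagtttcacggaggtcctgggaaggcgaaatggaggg
Psmb10 (chr19:50743243-50743542, minus strand): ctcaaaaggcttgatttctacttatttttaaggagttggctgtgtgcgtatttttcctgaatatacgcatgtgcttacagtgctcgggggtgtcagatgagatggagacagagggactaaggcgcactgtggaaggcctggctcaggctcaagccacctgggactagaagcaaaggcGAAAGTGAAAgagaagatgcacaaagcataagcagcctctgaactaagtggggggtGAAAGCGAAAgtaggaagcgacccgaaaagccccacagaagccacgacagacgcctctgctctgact
The windows of Ube2l6, Psma5, Psmc1 and Psmd10 hold CCAAT boxes and no interferon element core, while that of Psmb10 holds 2 such cores and no CCAAT box. Of the 46 members, 40 had a promoter in the table, and 21 of these held a CCAAT box. Among members whose groups did not overlap, 5 of 7 promoters held it, and those of Psma6 and Psmc5 did not. The 5 include that of Psmc3ip, which encodes no proteasome subunit. The CCAAT box was present in 8 of 12 core, 6 of 14 regulatory and 4 of 11 Ube2 promoters, against 37.5% of all 33469 promoters of that length. The antioxidant response element core was present in 2 core, 3 regulatory and 2 Ube2 promoters, against 12.1% of all promoters. The interferon element core was present in 3 core promoters (Psma4, Psmb3 and Psmb10), in Psme2 and in Ube2d3, against 3.92% of all promoters. Matches of different motifs overlapped in Psmb2 and in none of the other members. These counts describe letters in a window and say nothing of whether a factor binds there.

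Array medians lay between 212 and 245 intensity units. Markers of hepatocytes were bright on every array, with the intensity of Alb (albumin) between 40478 and 54837. Some markers of other cells moved with the regimen, and their part in the results below was not tested. All 11 lung genes on a marker list had negative differences, 7 of them at an unadjusted p under 0.05. Car4 also had an adjusted p under 0.05, at 0.0348 (limma). The summed intensity of the list was 575 to 794 against 1810 to 7819, and aggressive arrays 1 and 3 carried most of it. Car4 and Pdpn were high in aggressive array 2 as well, at 802 and 739, against at most 129 and 360 in the limited arrays. Sftpd, at 35.5, and Sftpa1, at 23.9, exceeded the limited arrays there by less. Sftpc, Sftpb, Ager, Cldn5, Cldn18, Lamp3 and Scgb1a1 did not exceed the highest limited array in aggressive array 2, with Sftpc at 33.7 and Sftpb at 27.3. The 8 measured of 11 macrophage markers had positive differences, 6 of them at an unadjusted p under 0.05, with a summed intensity of 38662 to 44096 against 24646 to 29802. Of the other lists, 1 of 4 measured stellate cell markers was higher and 2 of 6 lymphocyte markers split at an unadjusted p under 0.05. None of 8 hepatocyte, 3 neutrophil, 4 erythroid, 1 endothelial, 3 cholangiocyte and 6 dividing cell markers reached that p. It was reached by 13.1% of all rows, 6.86% higher and 6.19% lower under limited resuscitation. In whole tissue, fewer cells of a type and less RNA per cell cannot be told apart.

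The comparison asked whether the pressure target altered the transcripts of this degradation machinery, and most members differed little. In the limma fit, 0 of 46 members had a Benjamini-Hochberg adjusted p under 0.05 over all 19345 rows, against 0.114% of all rows, and the lowest adjusted p among members was 0.309. An unadjusted p under 0.05 was reached by 1 of 46 members, Ube2l6, against 13.1% of all rows. The 46 log2 differences lay between -0.66 and 0.27, with a median of -0.11, while the median over all rows was 0.01. Differences were negative for 30 members, against 48.8% of all rows and 50.4% of rows with a mean at or above the median row. They were positive for 16 members, against 51.2% of all rows. The limited and aggressive arrays did not overlap for 9 members, or 19.6%, against 19.8% of all rows and 25.3% of the brighter rows. All 9 were lower under limited resuscitation, a direction taken without overlap by 9.76% of all rows and 12.8% of the brighter ones. The 9 include Psmc3ip, which encodes no proteasome subunit and lay below the array median on every array. No member was higher without overlap, against 10.0% of all rows.

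The intervals bound how large a difference these arrays allow. For 44 of 46 members the 95% interval of the difference lay within 2-fold either way, against 58.2% of all rows and 82.8% of the brighter rows. For 18 members it lay within 1.5-fold, against 12.4% and 22.4%. The median spread between arrays of a group was 0.17 on the log2 scale for members, 0.31 for all rows and 0.22 for the brighter rows. Intensity exceeded the array median on every array for 44 members. Psmc3ip, which is dim in these livers at 113 to 176, lay below it on all arrays, and Ube2a on some.

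**Figure D1:**
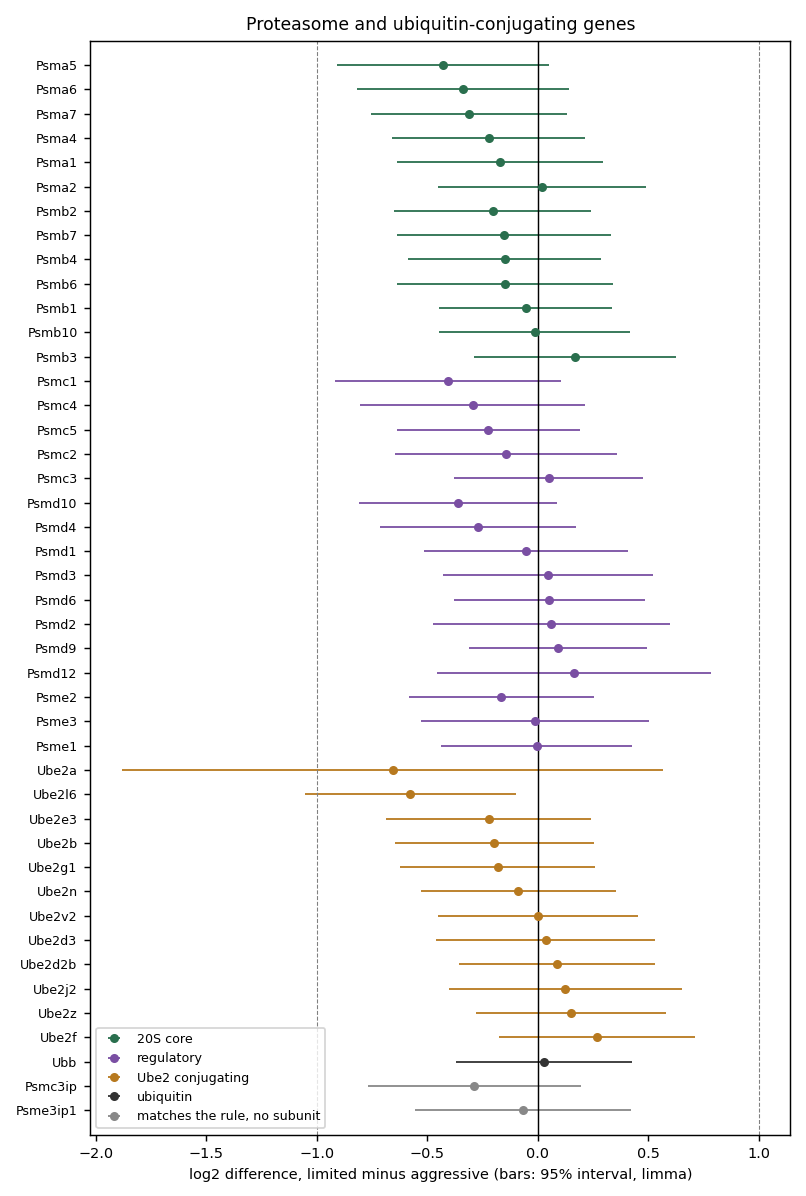
Log2 difference between limited and aggressive resuscitation for 44 of the 46 members, as points with 95% intervals from limma, grouped by role (n = 3 arrays per group). Dashed lines mark 2-fold, and the intervals drawn stay inside them except those of Ube2a and Ube2l6.

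Among the alpha subunits, which form the outer rings and the gate of the core, 5 of 6 were lower under limited resuscitation, with a median log2 difference of -0.27. Psma5 had intensities of 2143, 2726 and 3116 in the limited and 3749, 3397 and 3483 in the aggressive arrays. All aggressive arrays were above all limited ones, and limited array 1 was the lowest. The log2 difference of Psma5 was -0.43 (SE 0.205, adjusted p = 0.432), and -0.28 without limited array 1. Psma6 measured 2544, 2469 and 1860 under limited and 2567, 3027 and 3037 under aggressive resuscitation, groups that were separate but nearly touched. Psma7 measured 6128, 6941 and 5818 against 7541, 7028 and 8914, also separate, with the highest value in aggressive array 3. Their log2 differences were -0.34 (SE 0.205) and -0.31 (SE 0.190), neither of which passed (adjusted p = 0.538 and 0.542). Without limited array 3 the difference of Psma6 was -0.19. The other alpha subunits overlapped between groups, Psma4 at -0.22, Psma1 at -0.17 and Psma2 at 0.02.

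None of the 7 beta subunits among the members separated the groups, and their median log2 difference was -0.15. Psmb7, which carries the trypsin-like site, had intensities of 6084, 6969 and 8612 under limited and 8900, 7569 and 7459 under aggressive resuscitation. The arrays overlapped, as limited array 3 exceeded aggressive arrays 2 and 3, and the difference was -0.15 (95% interval -0.64 to 0.33). Psmb6, the subunit of the caspase-like site, measured 1208, 1493 and 1518 against 1866, 1412 and 1412, with a difference of -0.15 as well (95% interval -0.64 to 0.34). The structural subunits Psmb2, Psmb4 and Psmb1 differed by -0.20, -0.15 and -0.05. Psmb3, another structural subunit, was the one beta gene among the members above 0, at 0.17 (SE 0.195, adjusted p = 0.758), and at 0.055 without aggressive array 2.

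Over all 13 core subunits the median log2 difference was -0.15, with 11 below 0 and 2 above. Limited array 1 had a large share in this value. The median deviation of core genes from their own mean was -0.19 in that array, against 0.0069 and -0.05 in limited arrays 2 and 3 and 0.03 to 0.05 in the aggressive arrays. Without limited array 1 the core median was -0.049, and leaving out any other array gave between -0.19 and -0.12.

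The 16 regulatory genes had a median log2 difference of -0.032, with 10 below 0 and 6 above, and the median was -0.10 without aggressive array 3. The 5 ATPase genes had a median of -0.22 and the 8 Psmd genes of 0.05, with ranges of -0.41 to 0.05 and -0.36 to 0.16 that overlapped, and the difference between these sets was not tested. Psmc1 measured 1000, 1456 and 1360 under limited and 1591, 1527 and 1895 under aggressive resuscitation, with limited array 1 the lowest and no overlap. Its log2 difference was -0.41 (SE 0.218, adjusted p = 0.482), and -0.24 without limited array 1. Psmc5 was separate as well, at 2211, 1970 and 2246 against 2320, 2693 and 2496, with a smaller difference of -0.22 (SE 0.177, adjusted p = 0.647). Psmc4 differed by -0.29, or by -0.11 without limited array 1, and Psmc2 by -0.14, both with overlapping arrays, whereas Psmc3 lay at 0.05. The ATPase genes were low in limited array 1, with a median deviation of -0.37, and between -0.02 and 0.14 in the other 5 arrays.

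Of the Psmd genes, Psmd10, the assembly chaperone gankyrin that is also known as a liver oncoprotein, had the largest difference and was the one that separated the groups. It measured 410, 420 and 524 under limited and 630, 552 and 549 under aggressive resuscitation, a log2 difference of -0.36 (SE 0.191, adjusted p = 0.475). Psmd4, a ubiquitin receptor of the cap, measured 1919, 1644 and 1799 against 2419, 1872 and 2203. Its groups overlapped through limited array 1 and aggressive array 2, and the difference of -0.27 did not pass (adjusted p = 0.600). The large scaffold subunits were flat, Psmd1 at -0.05 (95% interval -0.52 to 0.41) and Psmd2 at 0.06 (95% interval -0.47 to 0.60). Psmd3 and Psmd6, both at 0.05, are structural parts of the lid of the cap. Psmd12, another lid subunit, lay at 0.16 with a wide interval (-0.46 to 0.78), and Psmd9, an assembly chaperone, at 0.09.

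**Figure D2:**
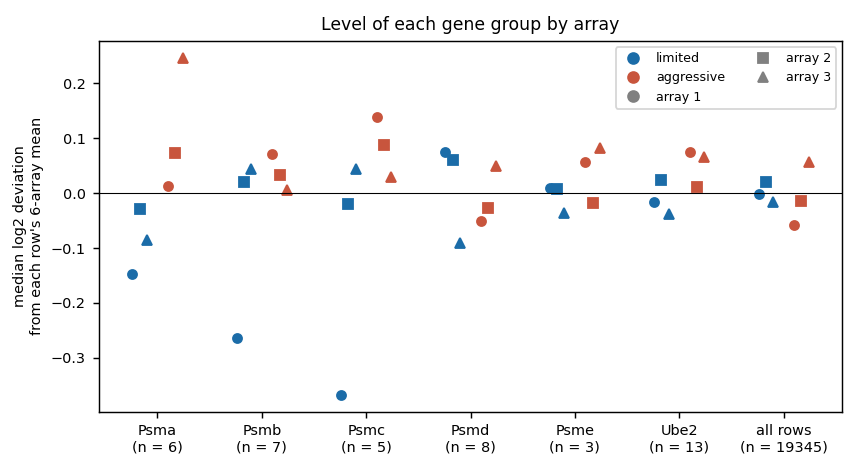
Median log2 deviation of each gene group from its members' own 6-array means, for each array (blue limited, red aggressive; symbols mark arrays 1 to 3), with all rows at the right. Limited array 1 lies lowest for Psma, Psmb and Psmc, at -0.15, -0.26 and -0.37, but not for Psmd, at 0.07.

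Activator genes did not separate the regimens. Psme1 measured 2786, 2181 and 2411 under limited and 2443, 2335 and 2596 under aggressive resuscitation, a log2 difference of -0.0051 (95% interval -0.44 to 0.43). Psme2, its partner in the interferon-inducible activator ring, measured 2194, 2537 and 2437 against 2625, 2493 and 2917, at -0.16 (95% interval -0.58 to 0.25). Psme3, which encodes a nuclear activator, measured 2741, 2737 and 2654 against 3283, 2967 and 2096, at -0.01. Its limited arrays were close together, and aggressive array 3 was the lowest of all.

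Interferon-inducible subunits gave unequal values, without a test of one gene against another. Psmb10, the inducible counterpart of Psmb7 and a member by the rule, measured 5413, 5382 and 6189 under limited and 5213, 6433 and 5524 under aggressive resuscitation. The arrays were interleaved, with a log2 difference of -0.01 (95% interval -0.45 to 0.42). Psmb8, which the rule leaves out, measured 3253, 3074 and 3566 against 4363, 4235 and 4462, separate groups with a difference of -0.40 (SE 0.172, adjusted p = 0.383). Psmb9, also left out by the rule, differed by -0.20 with overlapping arrays. Tap1, the peptide transporter that feeds proteasome products to antigen presentation, measured 3944, 3895 and 4073 against 5882, 4684 and 6323, a difference of -0.49 (SE 0.192, adjusted p = 0.348).

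**Figure D3:**
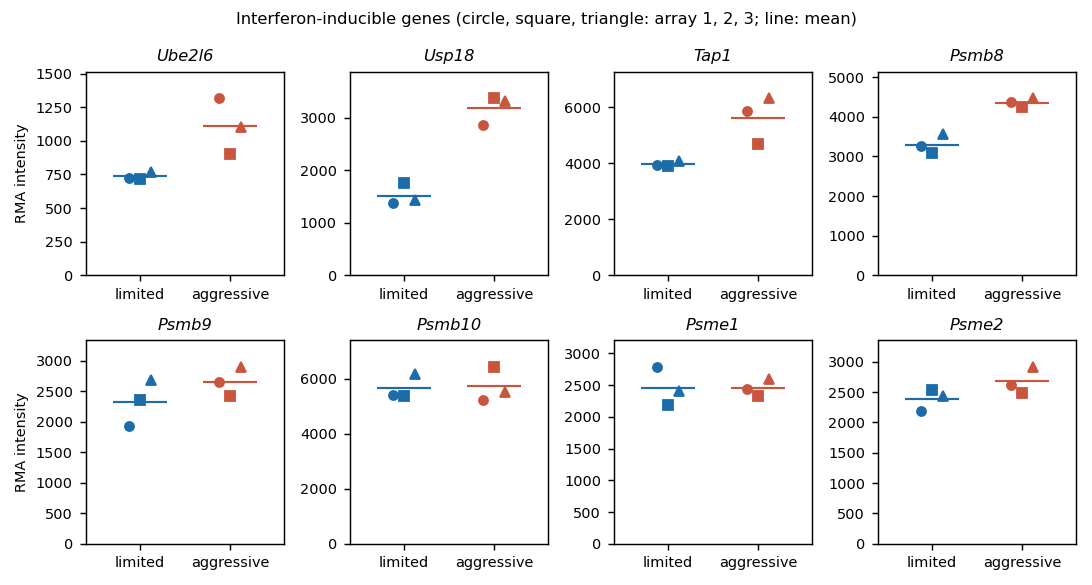
Intensity on each array for Ube2l6, Usp18, Tap1 and the interferon-inducible proteasome genes (blue limited, red aggressive; symbols mark arrays 1 to 3, lines the group means, n = 3). Ube2l6, Usp18, Tap1 and Psmb8 are separate, whereas Psmb9, Psmb10, Psme1 and Psme2 overlap.

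Within the conjugating family, Ube2l6 had the smallest p of all members. It encodes the E2 enzyme for the interferon-induced modifier ISG15. Its intensities were 724, 713 and 769 in the limited arrays and 1315, 905 and 1106 in the aggressive arrays, so that all aggressive arrays were higher and arrays 1 and 3 the most. Ube2l6 was 1.49-fold higher under aggressive resuscitation, a log2 difference of -0.58 (SE 0.203, unadjusted p = 0.0240, adjusted p = 0.309, limma). Aggressive arrays 1 and 3 also carried most of the summed lung signal, and against aggressive array 2 alone the difference was -0.30. In aggressive array 2, Car4 and Pdpn of the lung list were high, at 802 and 739. Most other genes of that list, such as Sftpc at 33.7 and Sftpb at 27.3, did not exceed the highest limited array there. The part of the lung transcripts was not tested. Ube2l6 kept its direction but no longer had an unadjusted p under 0.05 without limited array 1 or 2 or aggressive array 1 or 3, where the difference lay between -0.57 and -0.44. Usp18, the protease that removes ISG15, is no member and measured 1370, 1752 and 1437 against 2873, 3369 and 3312. Its log2 difference was -1.07 (SE 0.191, adjusted p = 0.107), and aggressive array 2 was the highest.

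Ube2a had the most negative difference of all members, at -0.66, but also the widest interval, from -1.88 to 0.57. It encodes a RAD6-type E2 enzyme of histone ubiquitination and DNA damage tolerance. Its intensities were 326, 215 and 167 under limited and 796, 297 and 193 under aggressive resuscitation. Aggressive array 1 stood far above the rest, and without it the difference was -0.079, whereas without aggressive array 3 it was -1.10. Ube2b, the second RAD6-type enzyme, differed by -0.20 with overlapping arrays.

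Enzymes for another modifier and for signalling chains lay on both sides of 0. Ube2f, an enzyme for the modifier NEDD8, had the highest difference of the family, at 0.27, with 3909, 4203 and 4137 against 3919, 2932 and 3387. Aggressive array 1 fell within its limited range (adjusted p = 0.603). Ube2n, which builds the ubiquitin chains used in immune signalling and DNA repair, differed by -0.09, and its non-catalytic partner Ube2v2 by 0.0003. For Ube2v2 the intensities were 979, 868 and 771 against 942, 764 and 909, fully interleaved.

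The remaining E2 genes were within their spread. Ube2d3, a broadly acting enzyme, measured 23631, 24834 and 17112 under limited and 21832, 22142 and 19292 under aggressive resuscitation, a log2 difference of 0.04 (95% interval -0.46 to 0.53). Ube2e3 and Ube2g1 differed by -0.22 and -0.18, and Ube2z, which is charged by the activating enzyme Uba6, by 0.15. Ube2j2, an enzyme of the endoplasmic reticulum membrane, differed by 0.12 and Ube2d2b, a relative of Ube2d3, by 0.09. The median of the 13 Ube2 genes was -0.09, with 7 below and 6 above 0. It was -0.027 without aggressive array 3, -0.15 without either limited array 2 or aggressive array 2, and -0.0026 against aggressive array 2 alone.

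**Figure D4:**
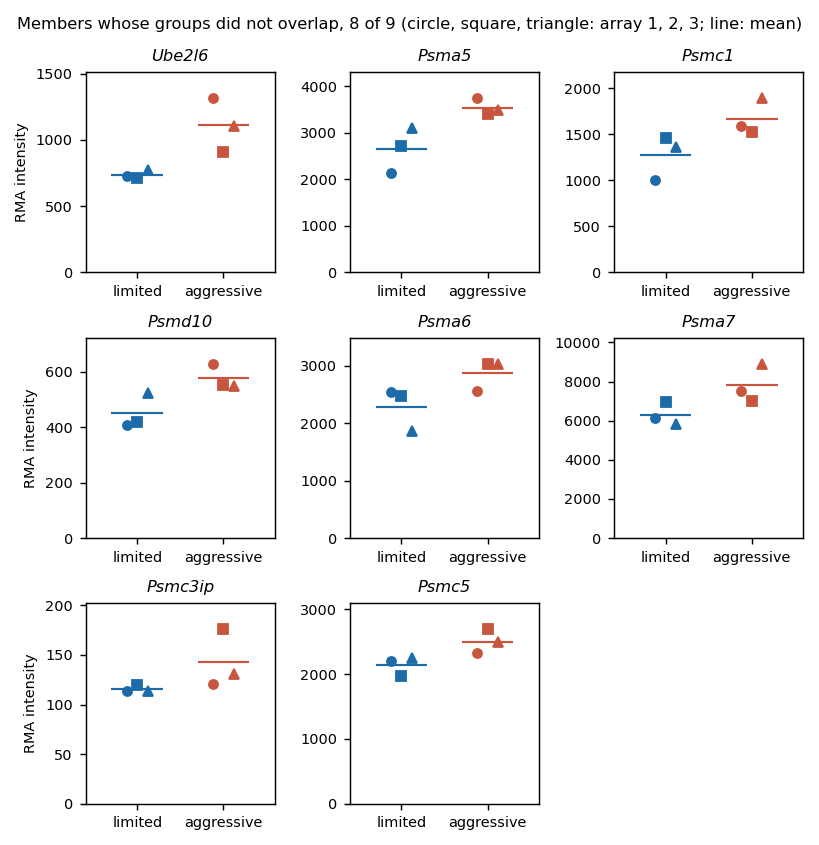
Intensity on each array for 8 of the 9 members whose groups did not overlap, ordered by log2 difference (blue limited, red aggressive; symbols mark arrays 1 to 3, lines the group means, n = 3). In all 8 panels the aggressive arrays are higher, while none passed the adjusted test. The panels include the dim Psmc3ip, which encodes no proteasome subunit.

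Among the genes of ubiquitin itself, Ubb is a stress-inducible gene that encodes ubiquitin as a chain of repeats. Ubb measured 41042, 40730 and 40049 under limited and 39178, 42754 and 37750 under aggressive resuscitation, a log2 difference of 0.03 (95% interval -0.37 to 0.43). The arrays overlapped, and aggressive array 2 was the highest and aggressive array 3 the lowest. Ubb ranked between 21 and 41 from the brightest row on every array, and the sources used here do not say whether signals there were compressed or saturated, so that a difference could be understated. Rps27a, which encodes ubiquitin fused to a ribosomal protein and is no member, measured 14834, 16042 and 15849 against 11038, 12731 and 11342, separate groups with the limited arrays higher by 0.41 (SE 0.173, adjusted p = 0.376).

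Genes upstream of and around the conjugating step were taken from lists that were written with earlier results of these data known. None of their members passed the adjusted test. Of 6 measured E1 genes, 0 had an unadjusted p under 0.05, against 13.1% of all rows, with a median log2 difference of 0.08. Uba1, the main ubiquitin-activating enzyme, lay at -0.02, and Nae1, Uba3 and Atg7, activating enzymes of NEDD8 and of autophagy, at 0.59, 0.19 and 0.12. Nae1 lay below the array median on every array. Of 8 modifier genes, 1 was higher (Rps27a) and 1 lower at that p, against 6.86% and 6.19% of all rows. The lower gene was Atg12, the ubiquitin-like protein of autophagy, at -0.73 (SE 0.274, adjusted p = 0.337). Like Nae1, Atg12 lay below the array median on every array.

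Regulators, shuttles and ubiquitin receptors of the proteasome had a median of -0.02 over 13 genes. At an unadjusted p under 0.05, 1 of them was lower and 0 were higher, against 6.19% and 6.86% of all rows. Zfand2a, a stress-induced zinc finger protein that associates with the proteasome, measured 653, 767 and 654 under limited and 1390, 1032 and 1416 under aggressive resuscitation. The groups were separate, with a log2 difference of -0.88 (SE 0.206, adjusted p = 0.180). Rad23b, which shuttles ubiquitinated proteins to the proteasome, lay at -0.33, and Vcp, the unfoldase that extracts them from complexes, at 0.23.

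The ligases and deubiquitinases spanned wider ranges of differences than the members did. Of 33 E3 ligase genes, 6 were higher and 4 lower under limited resuscitation at an unadjusted p under 0.05. Of 20 genes on the deubiquitinase list, 2 were higher and 4 lower. That list also holds proteases of other modifiers, among them Senp2 (SUMO) and Usp18 (ISG15), both counted as lower. The shares of all rows were 6.86% and 6.19%. Fbxo32, the atrophy-related ligase atrogin, measured 281, 245 and 217 under limited and 457, 635 and 575 under aggressive resuscitation, a log2 difference of -1.16 (SE 0.211, adjusted p = 0.108). Birc2, a ligase that controls cell death and NF-kB signalling, went the other way with 1450, 2207 and 1601 against 709, 811 and 984, a difference of 1.06 (SE 0.236, adjusted p = 0.165). Rnf8, a ligase of the DNA damage response, lay at 0.74. Both groups of arrays were separate for each of these ligases.

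On the deubiquitinase list, Senp2, which removes SUMO, measured 665, 682 and 915 under limited and 1617, 1786 and 1544 under aggressive resuscitation. Its log2 difference was -1.14 (SE 0.203, adjusted p = 0.106). Yod1, which acts in degradation of proteins from the endoplasmic reticulum, was dim, at 48.1, 44.3 and 41.8 against 107, 102 and 102, with a difference of -1.21 (SE 0.171, adjusted p = 0.0740). For both genes the groups were far apart compared with the spread within each group.

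**Figure D5:**
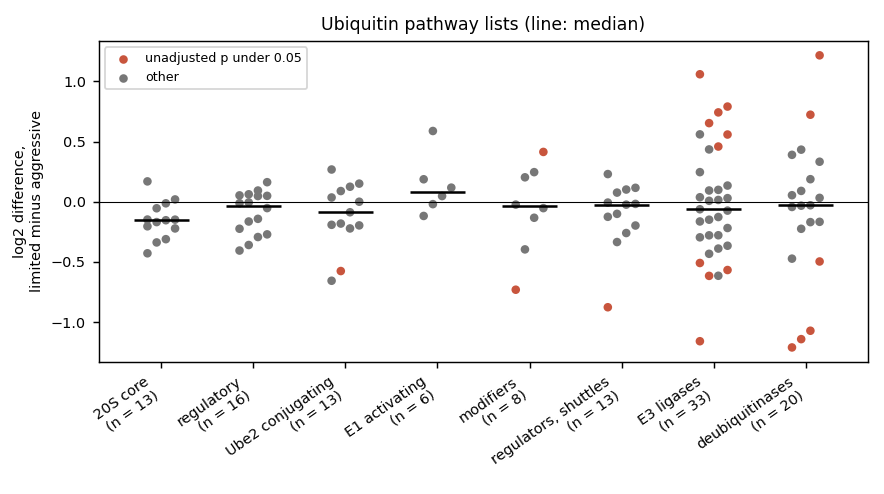
Log2 difference of each gene, limited minus aggressive, for the core, regulatory and Ube2 members and for the other ubiquitin pathway lists (red, unadjusted p under 0.05; line, median of the list). Core and regulatory genes lie between -0.43 and 0.17, whereas E3 ligases reach from -1.16 to 1.06 and the deubiquitinase list from -1.21 to 1.22. Both ends of the deubiquitinase list, Yod1 and Uchl1, are dim, below the array median on every array.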

How the data were processed

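Intensities of 6 one-colour Cy3 NimbleGen arrays were processed by the authors with RMA, per the submitters' processing notes, a method that subtracts background, makes the arrays' distributions alike and combines probes into 1 value. The deposited intensities, 1 per RefSeq transcript row, were on a linear scale. The sources used here name no RMA version, scanner, array build or filter, and the label fields name different RNA extraction kits. The precision is limited by 3 arrays per group, and signal over background was not available to judge detection.

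Unversioned accessions were matched to the RefSeq table of rat assembly GRCr8, which named 7223 of 19345 rows and left 12122 unnamed. For each gene the row with the highest mean was used. A linear model of the log2 values was fitted by limma 3.58.1 under R 4.3.3, with two-sided moderated tests, no filter, a threshold of 0.05 and Benjamini-Hochberg adjustment over all rows. Tested on simulated data of 19345 rows, the fit recovered 9 of 100 genes set to change 2-fold and 69 of 100 set to change 4-fold. It also called 8 unchanged rows. The changed rows were drawn from all rows, whose median spread of 0.31 exceeded the 0.17 of the members, so recovery among members was not measured. Pseudogenes named after 20 of the members are in that table, and cross-hybridisation was not tested. Replicate numbers did not pair the arrays (correlations of same-numbered deviations -0.06, -0.05 and 0.05).

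Genes named in full follow a rule: those past the adjusted test, the 3 smallest p of each subunit family (8 for Ube2), the brightest and dimmest of each class, and genes fixed by role. List genes are the 3 with the smallest p, and others are named beside them. The members, lists and marker lists were chosen with earlier results of these data known. Some members and list genes are counted but not reported here by name. Motifs were counted in promoters of 300 bases. Alternatives were another normalisation, centring, a filter on dim rows, another variance prior, array weights, the replicate block, mean rows per gene and arrays left out. Figures were drawn with matplotlib 3.10.9.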

Additional observations from a re-analysis of the deposited data

How the results depend on the processing

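No member passed the adjusted test under any of the 14 alternatives, and 22 of 37 named members kept the sign of their difference in all of them. The count of all rows that passed, 22, was 483 without dim rows, 570 under a robust prior that follows intensity, 0 with the replicate block and 0 against aggressive array 2 alone, and 0 to 2 when 1 array was left out. Members lower at an unadjusted p under 0.05 numbered 1, and 3 without dim rows (Ube2l6, Psma5 and Psmc1, against 20.9% of rows in either direction), 4 under the robust prior (Psma7 in addition, against 15.4% of rows), 0 against aggressive array 2 alone and 0 to 2 with 1 array left out. The lowest adjusted p reached by Ube2l6 was 0.0787, without dim rows. Members without overlap, 9, numbered 25 against aggressive array 2 alone (54.7% of rows) and 13 to 17 with 1 array left out (28.1% to 31.9% of rows), as fewer arrays overlap less. The core median lay between -0.19 and -0.049, the regulatory between -0.10 and -0.024 and the conjugating between -0.15 and -0.027 with 1 array left out. Centring of arrays moved the regulatory median from -0.032 to -0.067 and the conjugating from -0.087 to -0.12, with the median of all rows at -0.023. Against aggressive array 2 alone, where the lone array is assumed to vary as the limited arrays do, so that its p-values say nothing of the spread under aggressive resuscitation, the medians were -0.080 and -0.0026. The replicate block ended no call of a member, and left the core median at -0.15. The cause of these shifts was not tested. Using the mean of a gene's rows altered no member value, since each has 1 row.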
